A study of Mus musculus with 6 samples.

Results

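The genes described here encode the enzymes of glutathione use and of the antioxidant defence: glutathione synthesis and recycling, the glutathione transferases, glutathione peroxidases, peroxiredoxins, thioredoxins and their reductases, superoxide dismutases and catalase. They were taken by a rule on gene symbols, which uses no measured value, from the probe sets of 3 mouse expression chips that carry a single annotated symbol. This gave 48 genes of 15964 on the chips, represented by 84 probe sets. A further 3 probe sets share such a symbol with another gene and were left out. A gene counted as measured where its probe set lay above the chip's floor on at least 1 array. The floor was the 40th percentile of the signals on both arrays of a chip, and lower signals were raised to it. By this measure 45 of the 48 genes were measured, 42 of them above the floor on both arrays, and Gsta1, Mgst2 and Gpx5 lay below it throughout.

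The samples were total RNA that the labels assign to spermatogonia. The mice were 1 week old and either wild type (WT) or carried a knock-out of Zfp145 (Null), the zinc finger repressor now called Zbtb16 or PLZF. The labels give the strain as 129sv/c57Bl6, and spell it differently on the other two chips. The 3 chips, named U74Av2, U74Bv2 and U74Cv2, hold different probe sets, and each received 1 array of either genotype. Without replicates the differences below are descriptions of single arrays and carry no p-value. Which part of the gene was removed, how many mice were pooled, and whether the chips of a genotype shared 1 RNA extract is not stated in the labels.

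Glutathione is a tripeptide made by glutamate-cysteine ligase, whose catalytic and modifier subunits are Gclc and Gclm, and by glutathione synthetase, Gss. Glutathione reductase, Gsr, returns the oxidised form to the reduced one with NADPH. Transferases attach glutathione to electrophiles, peroxidases use it to reduce hydrogen peroxide and lipid peroxides, and peroxiredoxins do similar work with electrons from thioredoxin. Superoxide dismutases turn superoxide into hydrogen peroxide, which catalase breaks down. Several of these genes are known targets of the transcription factor NRF2 (Nfe2l2), which binds antioxidant response elements. In the testis, transferases of the alpha and mu classes are known to be abundant, and Gpx4 is needed for sperm formation.

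No member differed by 2-fold between the genotypes in the probe set that represented it, while among all 12434 measured genes 1.42% were higher in the null by 2-fold or more and 1.64% were lower by as much. A gene's value was taken from the probe set that ranked highest by level within its chip. Of the 45 measured members 29 were lower in the null array and 16 higher, with ratios from -0.77 to 0.85 on the log2 scale. That is 64.4% below 0, beside 51.5% of all measured genes. A gene above the floor on only 1 array, as with Gpx6, Gstt3 and Gstt4, can only be counted as higher on that array. Of the 42 members above the floor on both arrays 28 were lower, 66.7%, beside 51.0% of 11307 genes. The median log2 ratio was -0.15, with quartiles of -0.34 and 0.19, beside a median of -0.01 and quartiles of -0.22 and 0.20 over all measured genes. For the 34 members represented on U74Av2 the median was -0.16 and 70.6% were below 0, beside -0.01 and 52.0% of all genes represented on that chip.

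Genes with more than 1 probe set give the only repeated measurement in these data. The spread given below comes from pairs of probe sets for 1 gene within a chip: it is the median size of the difference between their log2 ratios, scaled to the standard deviation of a single ratio. On U74Av2 this spread was 0.35 for dim, 0.27 for intermediate and 0.16 for bright probe sets. For U74Bv2 the values were 0.35, 0.34 and 0.27, and for U74Cv2 they were 0.56, 0.48 and 0.32. The spread between mice, between RNA preparations and between hybridisations is not part of it. Of the 45 members 37 lay within 2 spreads of 0 and 18 within 1. Gclm, Gsr, Gsto1 and Gstt2 were higher by more than 2 spreads, which is 8.89% of the members beside 4.03% of all measured genes. Gsta2, Gsta4, Mgst1 and Gpx6 were lower by more than 2 spreads, also 8.89%, beside 4.99% of all measured genes. Gpx6 was at the floor in the null and passed through the wild-type array alone, so it could only come out lower. Among the 42 members above the floor on both arrays 9.52% were higher and 7.14% lower by more than 2 spreads. The shares of all such genes were 3.64% and 4.48%. On U74Av2 alone these counts were 4 and 3 of 34, beside 4.71% and 5.68% of all genes represented there. At 1.5-fold 3 members were higher and 3 lower, 6.67% each, which is near the 5.3% and 6.32% of all measured genes. On U74Av2 3 of 34 were 1.5-fold higher and 2 lower, beside 2.83% and 3.64%.

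**Figure D1:**
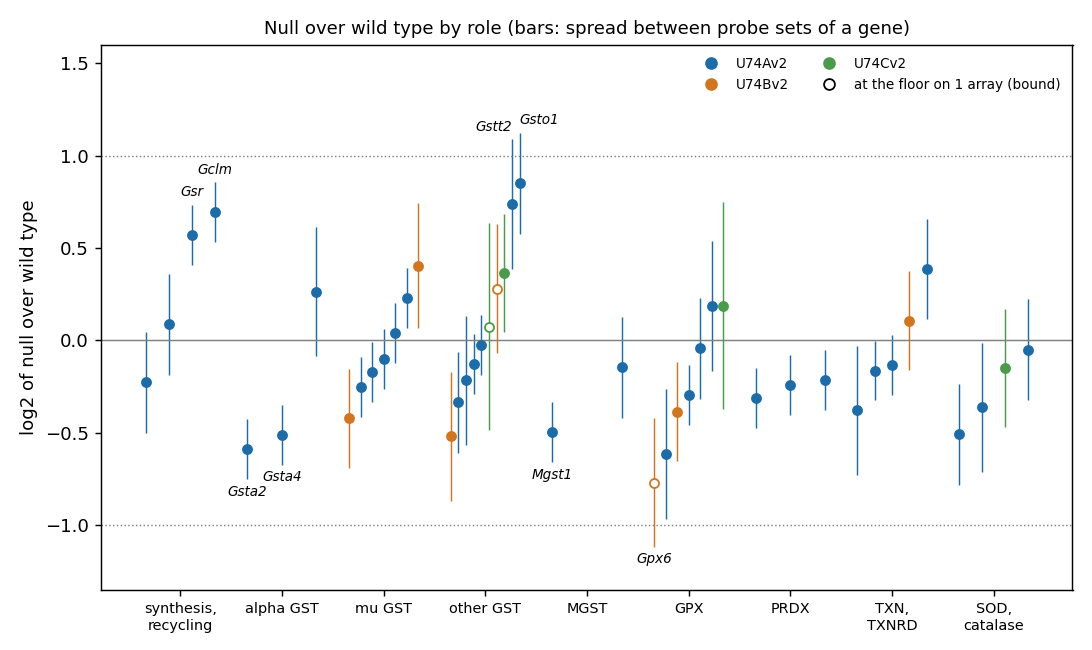
Log2 ratio of null over wild type (vertical axis) for the 45 measured enzymes, grouped by role (horizontal axis) and coloured by chip; each point is 1 gene's representing probe set, each bar reaches 1 spread between probe sets of a gene at that level to either side, open points are bounds and dotted lines mark 2-fold. Genes over 2 spreads from 0 are named: Gclm (0.69), Gsr (0.57), Gsto1 (0.85) and Gstt2 (0.74) above, Gsta2 (-0.59), Gsta4 (-0.51), Mgst1 (-0.50) and, as a bound, Gpx6 (-0.77) below. The 3 peroxiredoxins among the members and the superoxide dismutases lie below 0 in these probe sets, as does catalase. Other probe sets, not drawn here, stood above 0 for catalase (0.59), Prdx4 (0.54) and Sod1 (0.51).

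Because several of these genes are NRF2 targets, their promoters were searched for the core of the antioxidant response element, TGACNNNGC, on both strands. The windows were RefSeq promoters of build GRCm38.p6, from 250 bases before to 50 bases after each start, and 43 of the 48 members had 1 or more (not Gclc, Gsr, Gsta4, Gstt2 and Sod3). The core was in 7 of these 43 genes, 16.3%, and in 14.0% of all 27025 genes with a window. It was in 7 of 57 windows of members, 12.3%, and in 12.4% of all 32851 windows. The members were thus close to all genes in this respect. The windows that hold it are shown because they include 2 members that were higher in the null, Gclm and Txnrd1, and 2 that were lower, Mgst1 and Gstm7. Each sequence runs 5′ to 3′ on the gene's strand, with the core in capitals, which reads GCNNNGTCA where it lies on the opposite strand.
Gclm, chr3:122245398-122245457, plus strand, core beginning 134 bases before the start: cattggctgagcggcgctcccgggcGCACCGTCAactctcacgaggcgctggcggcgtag
Txnrd1, chr10:82859089-82859148, plus strand, core beginning 92 bases before 1 of its starts: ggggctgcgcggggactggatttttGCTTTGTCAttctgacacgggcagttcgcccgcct
Gsta3, chr1:21240439-21240498, plus strand, core beginning 121 bases before the start: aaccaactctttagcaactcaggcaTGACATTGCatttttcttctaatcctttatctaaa
Gstm5, chr3:107895787-107895846, plus strand, core beginning 42 bases before the start: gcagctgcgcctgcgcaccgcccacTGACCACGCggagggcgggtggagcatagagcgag
Sod1, chr16:90220681-90220740, plus strand, core beginning 56 bases before the start: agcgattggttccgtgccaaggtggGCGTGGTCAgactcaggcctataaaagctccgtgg
Gstm7, chr3:107931709-107931768, minus strand, core beginning 129 bases before 1 of its starts: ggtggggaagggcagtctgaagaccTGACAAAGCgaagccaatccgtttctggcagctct
Mgst1, chr6:138140446-138140505, plus strand, core beginning 56 bases before 1 of its starts: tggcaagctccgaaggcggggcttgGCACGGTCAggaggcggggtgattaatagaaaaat

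The 7 members with the core had ratios from -0.50 for Mgst1 to 0.69 for Gclm, 4 higher and 3 lower in the null, and no difference from the members without it was tested. A match of letters is a description and not a bound site. Gsto1, the member with the highest ratio, has no match in its window, whose 250 bases before the start are shown for comparison with Gclm.
Gsto1, chr19:47854723-47854972, plus strand: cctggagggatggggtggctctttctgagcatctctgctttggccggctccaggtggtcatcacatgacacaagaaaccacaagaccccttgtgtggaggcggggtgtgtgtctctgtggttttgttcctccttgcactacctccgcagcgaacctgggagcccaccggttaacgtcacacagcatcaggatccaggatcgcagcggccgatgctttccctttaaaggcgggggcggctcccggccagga

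Among the genes of glutathione synthesis and recycling, the modifier subunit and the reductase were higher in the null while the catalytic subunit and the synthetase lay within 1 spread of 0. Gclm gave a signal of 1047.8 on the wild-type U74Av2 array and 1703.8 on the null array, a log2 ratio of 0.69 (1.62-fold), 4.27 times the spread at that level. Gsr gave 1057.2 and 1581.4, a ratio of 0.57 (1.49-fold), 3.53 times the spread. For both genes the null array was thus the higher one by more than probe sets of the same gene usually differ. Gclc gave 576.9 and 616.9, a ratio of 0.09, within the spread of 0.27. Gss gave 693 and 595.3, a ratio of -0.23, also within it. The median of these 4 genes was 0.33, the highest of the 9 role groups.

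Other probe sets of these genes added little. The U74Bv2 chip carries 2 more for Gclm, of which 1 read 168 and 122.6 beside a floor of 165.3 and the other was below the floor on both arrays, so neither gives a usable ratio. A second probe set for Gclc on U74Bv2 read 183.5 and 110.6, a bound of -0.15. One for Gss on U74Av2 read 146.1 and 70, a bound of -0.57. These probe sets of Gclc and Gss were at the floor in the null and could only come out lower. Gsr has a single probe set.

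The alpha class transferases, which act on lipid peroxidation products and steroids, were lower in the null where they were well above the floor. Gsta2 gave 1350.2 on the wild-type array and 902.7 on the null array, a ratio of -0.59 (1.51-fold lower), 3.64 times the spread. Gsta4, which conjugates the lipid peroxidation product 4-hydroxynonenal, gave 2663.3 and 1880.3, a ratio of -0.51 (1.43-fold lower), 3.16 times the spread. Both rest on 1 probe set each on U74Av2. Gsta3 was close to the floor of 98.3, at 102.4 and 123.6, a ratio of 0.26 within its spread of 0.35. Gsta1 was below the floor on both arrays, at 15.4 and 4.2.

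All 7 mu class transferases were measured, 3 higher and 4 lower, with a median of -0.10, and none was over 2 spreads from 0 in its representing probe set. Gstm1 gave 19576.2 on the wild-type array and 18363.6 on the null array, a ratio of -0.10. Gstm5, a testis and brain form, gave 8023 and 8299.3, a ratio of 0.04. Gstm6 gave 7048.6 and 5948.8, a ratio of -0.25, and its second probe set 3449.7 and 2669, a ratio of -0.38 and 2.34 times the spread. These genes thus had strong signal in both genotypes with ratios near 0 or below.

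On U74Bv2 Gstm7 gave 6305.2 and 4722.1, a ratio of -0.42, and Gstm4 gave 418.7 and 555.7, a ratio of 0.40, each within 2 spreads. Gstm2 and Gstm3 stood at 0.23 and -0.17. The 7 mu class genes are consecutive in the RefSeq gene order and close in sequence. Probe sets named _f_at, _r_at, _i_at, _s_at or _g_at can share or drop probes between transcripts, and those of Gstm1 and Gstm3, and most of those of Gstm5, carry such a suffix. Signal from 1 mu gene on the probes of another cannot be told apart here, so the ratios of single mu genes are uncertain.

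The one member probe set that differed by 2-fold on any chip was a dim probe set of Gstm2 on U74Av2, which read 314.3 on the wild-type array and 108.4 on the null array, a ratio of -1.54. It is 1 of 46 measured member probe sets on that chip, beside 0.908% of all measured probe sets at least 2-fold different in either direction. The 2 brighter probe sets of Gstm2 went the other way, with 3778.9 and 4450.6 on U74Av2, a ratio of 0.23, and 727.4 and 967.2 on U74Cv2, a ratio of 0.39. None of 14 member probe sets on U74Bv2 and none of 13 on U74Cv2 reached 2-fold, beside 1.82% and 11.2% of all measured probe sets on those chips. The 4 probe sets of Gstm5 above the floor on both arrays stayed between -0.11 and 0.06, and another read 10.1 and 139, at the floor of 124 in the wild type. The 5 of Gstm1 ran from -0.54 to 0.39.

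The other transferases were divided, 5 higher and 5 lower with Gstt3 and Gstt4 counted by their bounds, and held the highest ratio of all members. Gsto1, an omega class transferase that reduces dehydroascorbate and arsenic species, gave 542.7 on the wild-type array and 984.3 on the null array, a ratio of 0.85 (1.80-fold), 3.11 times the spread. Its neighbour in the genome, Gsto2, gave 782 and 1024.1 on U74Cv2, a ratio of 0.37, 1.14 times the spread there. Both omega genes were thus higher in the null, though only the first by more than 2 spreads, and each rests on 1 probe set. That of Gsto2 carries the suffix _f_at. It lies on U74Cv2, where only 4 of 13 member probe sets were below 0, beside 50.9% of all measured probe sets.

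Of the theta class, Gstt2 gave 132.4 and 222.2, a ratio of 0.74 (1.67-fold) and 2.11 times the spread, on a dim probe set near the floor of 98.3. Gstt1 stood at -0.22, within its spread. Gstt3 and Gstt4 were at the floor in the wild type, at 153.2 and 201.3 and at 22.5 and 132.8, which gives bounds of 0.28 and 0.07. Both passed through the null array alone and could only come out higher. The theta genes lie beside each other in the genome, and all were dim.

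The pi class gene Gstp1 gave 3759.6 and 3464.6, a ratio of -0.13 within its spread, and its relative Gstp3 stood at -0.52 on U74Bv2, at 269.6 and 188.7. Gstz1, a zeta class enzyme of tyrosine breakdown, gave 899.1 and 888, a ratio of -0.03. Gstk1, the kappa class enzyme of mitochondria and peroxisomes, stood at -0.34. Of these only Gstp3 and Gstk1 were more than 1 spread from 0, and none was more than 2.

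Of the microsomal transferases, membrane enzymes of another family, Mgst1 gave 1552.2 on the wild-type array and 1106.8 on the null array, a ratio of -0.50 (1.41-fold lower), 3.07 times the spread. Mgst3 gave 823.9 and 748.8, a ratio of -0.15, within its spread of 0.27. A second probe set for Mgst3 on U74Bv2 read 228.7 and 112.4, at the floor of 165.3 in the null, a bound of -0.47. It passed through the wild-type array alone and could only come out lower. Of the measured members of this family only Mgst1 thus lay beyond its spread, lower in the null by more than 2 spreads.

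**Figure D2:**
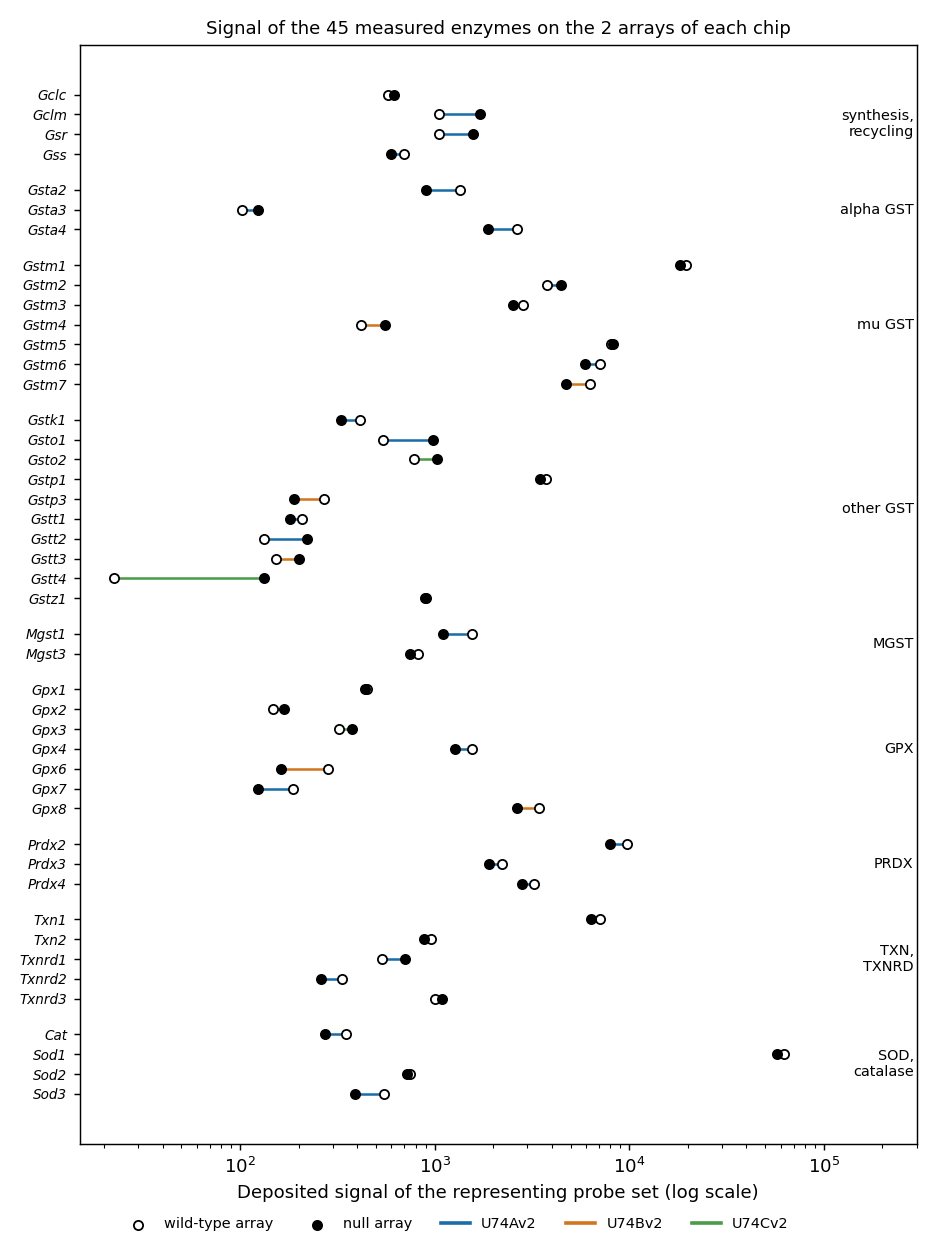
Deposited signal (horizontal axis, log scale) of the representing probe set of each of the 45 measured enzymes (rows, grouped by role), with open circles for the wild-type array, filled circles for the null array and the line coloured by chip; signals of different genes come from different probes and are not comparable with each other. Gclm (1047.8 and 1703.8), Gsr (1057.2 and 1581.4) and Gsto1 (542.7 and 984.3) move right from wild type to null and Gsta2 (1350.2 and 902.7), Gsta4 (2663.3 and 1880.3) and Mgst1 (1552.2 and 1106.8) move left; the long line of Gstt4 starts at 22.5, below the floor of 124.

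Of 7 measured glutathione peroxidases 5 were lower in the null and 2 higher, with a median of -0.30, Gpx6 counted by its bound. Gpx8, a peroxidase of the endoplasmic reticulum, gave 3437.4 on the wild-type U74Bv2 array and 2639.6 on the null array, a ratio of -0.39, 1.43 times the spread. Gpx4, the selenoenzyme that reduces phospholipid peroxides, gave 1559.7 and 1276.6, a ratio of -0.30, 1.84 times the spread. Gpx1, the main cytosolic form, gave 451.4 and 441.2, a ratio of -0.04. The first pair leaned lower by 1 to 2 spreads, and Gpx1 did not differ beyond the spread.

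The dimmer peroxidases gave less certain values. Gpx6, known from olfactory tissue, read 281.9 and 161.5, at the floor of 165.3 in the null, so it was at least 1.71-fold lower, a bound of -0.77. Gpx7 stood at -0.62 on U74Av2, at 187.7 and 123.3. Its probe set on U74Bv2 read 111.5 and 215.1, at the floor in the wild type, a bound of 0.38 that could only come out higher. Gpx3, the secreted form, stood at 0.19 in its representing probe set on U74Cv2 and at -0.32 on U74Av2, and Gpx2 at 0.19. The epididymal form Gpx5 was below the floor in both probe sets, as were the other 3 markers of epididymis and fat on the chips.

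Prdx2, Prdx3 and Prdx4, the only peroxiredoxins among the members, were lower in the null in their representing probe sets, by similar amounts. Prdx2, a cytosolic form that is abundant in red blood cells, gave 9799.6 on the wild-type array and 7945.5 on the null array, a ratio of -0.31, 1.92 times the spread. Prdx3, the mitochondrial form, gave 2227.2 and 1897.5, a ratio of -0.24. Prdx4, the form of the endoplasmic reticulum, gave 3251.5 and 2819.3, a ratio of -0.21. Each of these lay between 1 and 2 spreads below 0.

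Both Prdx2 probe sets above the floor on both arrays were lower in the null, at -0.31 and -0.40, and both are on U74Av2. The brighter one carries the suffix _g_at, and a further Prdx2 probe set on that chip read only 1.5 and 1.4. The Prdx2 probe sets on U74Bv2, at 234.7 and 60.9, and on U74Cv2, at 232 and 112.5, were at the floor in the null. They passed through the wild-type array alone and could only come out lower. Of 4 markers of red blood cells on the chips 3 were measured. The alpha globin gene Hba-a1 stood at -0.72 on U74Av2, Slc4a1 at -0.09 on U74Cv2, and Alas2 was at the floor in the null. The markers on U74Av2 summed to 4665.3 on the wild-type and 2870.1 on the null array. Of these sums Hba-a1 alone gave 4424.1 and 2697.2. Their part in the ratio of Prdx2 was not tested. Prdx4 was not alike across chips, with 703.9 and 1039 on U74Cv2, a ratio of 0.54.

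Among thioredoxins and their reductases 3 members were lower and 2 higher, none by more than 2 spreads. Txn1, the cytosolic thioredoxin, gave 7102.3 on the wild-type array and 6381.2 on the null array, a ratio of -0.16. Txnrd3, a reductase known for its high level in testis, gave 1005.2 and 1085.5 on U74Bv2, a ratio of 0.11, and stood at -0.15 in a probe set on U74Av2. Txn2, the mitochondrial thioredoxin, gave 959.8 and 881.2, a ratio of -0.13, but 227.9 and 411.2 on U74Cv2, a ratio of 0.83 at a level where the spread was 0.56. These 3 genes differed little between genotypes or differently on different chips.

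The reductases that serve these thioredoxins went opposite ways. Txnrd1, the cytosolic reductase and an NRF2 target, gave 533.6 and 701.6, a ratio of 0.39 (1.31-fold), 1.41 times the spread. Txnrd2, the mitochondrial reductase, gave 336.1 and 260, a ratio of -0.38 (1.30-fold lower), 1.08 times the spread. Both are on the same chip with 1 probe set each.

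The 3 superoxide dismutases were lower in the null in their representing probe sets, none by more than 2 spreads, and the probe sets of catalase disagreed. Sod1, the cytosolic enzyme, gave 62581.2 and 57385.5 on U74Cv2, a ratio of -0.15, and 15038.4 and 14350.1 on U74Av2, a ratio of -0.08. A dimmer Sod1 probe set on U74Bv2 read 230.9 and 330.5, a ratio of 0.51. Sod2, the mitochondrial enzyme, gave 744.4 and 723.5, a ratio of -0.05. Its probe set on U74Bv2 was at the floor in the null, a bound of -0.57 that could only come out lower. The signal of both genes on the brighter probe sets thus differed by less than the spread.

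Sod3, the secreted dismutase of the extracellular matrix, had the lowest ratio of this group. It gave 549.8 and 389.2, a ratio of -0.51 (1.42-fold lower), 1.86 times the spread, from 1 probe set. Catalase was divided between its probe sets on U74Av2, with 348.7 and 272.9 in the brighter one, a ratio of -0.36, and 129.8 and 196.4 in the dimmer one, a ratio of 0.59. The brighter one carries the suffix _f_at, and no direction can be given for Cat.

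How far the probe sets of a gene agreed can be read from the 12 members with more than 1 probe set above the floor on both arrays. Probe sets of 1 chip read the same arrays, so their agreement does not show that a ratio repeats in other RNA. In 4 of the 12 the remaining probe sets had on average the same sign as the representing one, beside 54.5% of 3997 genes on the chips with several. In 3 members, Gstm3, Gstm6 and Prdx2, every such probe set was lower in the null, and all of these are on U74Av2. Of all such genes 46.2% had every probe set in 1 direction. None of the members with a ratio over 2 spreads has a second probe set above the floor on both arrays. The chips also leaned differently. On U74Av2 34 of 46 member probe sets were below 0, beside 51.9% of all measured probe sets, on U74Bv2 9 of 14, beside 49.7%, and on U74Cv2 only 4 of 13, beside 50.9%. The medians over these probe sets were -0.17, -0.27 and 0.14. Of those above the floor on both arrays 33 of 45, 3 of 6 and 3 of 10 were below 0 on the 3 chips, beside 50.4%, 50% and 49.8% of all such probe sets. Without U74Cv2, 30 of 43 measured members were lower, with a median of -0.16.

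**Figure D3:**
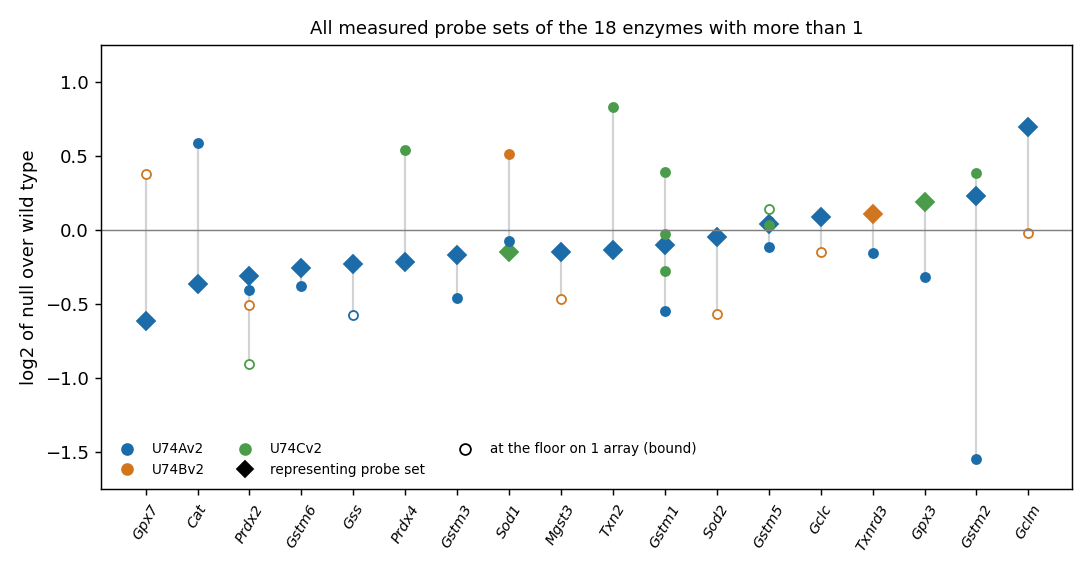
Log2 ratio of null over wild type (vertical axis) for each measured probe set of the 18 enzymes with more than 1 (horizontal axis, ordered by the representing probe set, drawn as a diamond), coloured by chip, with open symbols for bounds. The 2 filled symbols of Prdx2 lie at -0.31 and -0.40 and the 4 of Gstm5 between -0.11 and 0.06, whereas those of Cat, Prdx4, Txn2 and Gstm2 lie on both sides of 0.

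Related genes of redox metabolism lay closer to 0 or slightly above it in the median, a difference from the members that was not tested. Of 96 such genes listed, outside the members, 87 were on the chips and 74 measured, with 43 higher and 31 lower in the null, a median of 0.03 and none 2-fold different. To set beside these counts and those of the single lists, 51.5% of all measured genes were lower. The NRF2 pathway list had 13 of 18 measured genes higher, with a median of 0.08. Of the 13, Maff and Srxn1 passed through the null array alone and could only come out higher. Mafg and Fth1, both at 0.00, are also counted among them. Its brightest, the ferritin heavy chain Fth1 and the amino acid transporter subunit Slc3a2, stood at 0.00 and -0.05. Nfe2l2 itself stood at 0.10 and the haem oxygenase Hmox1 at 0.21, both picked out after their values were seen. So were the 4 genes of the list furthest from 0, which lay on both sides. Bach1, a repressor at the same elements, stood at 0.81 and the biliverdin reductase Blvra at 0.64. On U74Cv2 Hmox2 stood at -0.78 and Blvrb at -0.57. Other probe sets of Hmox2 stood at -0.04, 0.26 and 0.34, and another of Blvrb at -0.42. Keap1, Nqo1 and Slc7a11 were below the floor on both arrays.

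In the list of glutathione use and turnover 8 of 15 measured genes were higher, with a median of 0.05. Its brightest members were Ahcy, which breaks down S-adenosylhomocysteine, at 0.28 and Abcc1, an exporter of glutathione conjugates, at -0.61, with 0.00 in another Abcc1 probe set. Genes that supply NADPH had 4 of 8 higher and a median of 0.02, with Taldo1 at -0.09 and Pgls, both of the pentose phosphate pathway, at 0.07. Other redoxins and metal-binding proteins had 17 of 29 higher and a median of 0.02, with the metallothioneins Mt2 at 0.09 and Mt1 at -0.01. Of the 17, Sephs1 passed through the null array alone and could only come out higher. Genes of enzymes that make superoxide or peroxide had only 4 measured members, 3 of them lower, with Cyba at -0.08 and Maoa at -0.48. None of these lists had a median as low as that of the members except the last, at -0.21 over 4 genes.

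**Figure D4:**
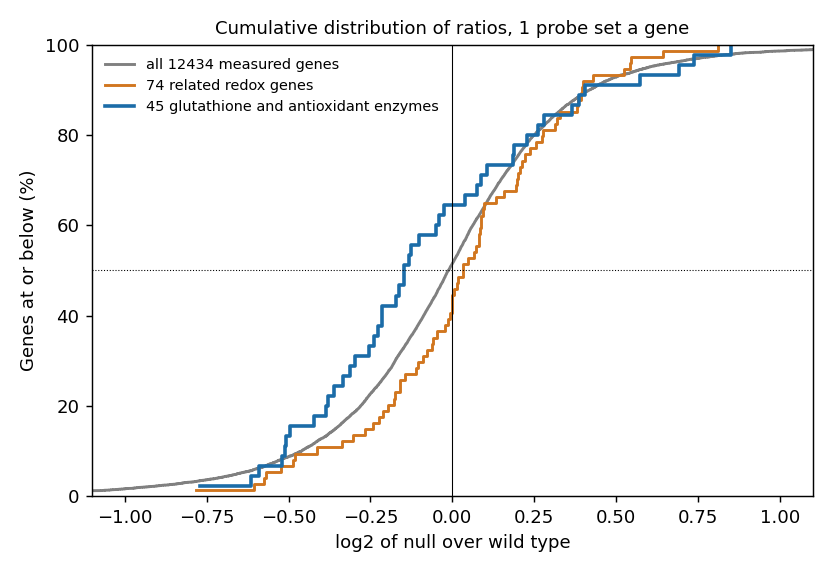
Share of genes (vertical axis, percent) at or below each log2 ratio of null over wild type (horizontal axis), with 1 probe set a gene, for the 45 measured enzymes, 74 measured related redox genes and all 12434 measured genes. The curve of the enzymes lies to the left of that of all genes around its median of -0.15, against -0.01 for all genes and 0.03 for the related genes.

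The arrays as a whole limit what can be read from these values. Zbtb16 itself gave 770.2 on the wild-type and 158.1 on the null U74Av2 array, a ratio of -2.29, and -1.20 on U74Cv2. Markers of other testis cells were well measured in RNA labelled as from spermatogonia, with all 10 Sertoli cell and all 10 macrophage markers on the chips above the floor on at least 1 array, beside all 8 germ cell markers. Among these the macrophage marker Adgre1 was below the floor in the null. Summed over the markers on U74Av2, germ cell signal was 13231.3 on the wild-type and 16186.9 on the null array. For Sertoli cells the sums were 38123.4 and 33069.3, for Leydig cells 4448.8 and 3763.4, for macrophages 7880.9 and 7098.4, for peritubular cells 8063.6 and 7655.4 and for endothelial cells 1700.9 and 1889.6. Of the measured germ cell markers 6 of 8 were higher in the null. For Sertoli cells, Leydig cells and macrophages 7 of 10, 5 of 6 and 8 of 10 were lower, beside 51.5% of all measured genes. Other probe sets of Dazl, Gfra1 and Mov10l1 were lower, at -0.32, -0.22 and -0.64, and that of Ddx4 was higher, at 0.56. The bright germ cell marker Tex101 stood at -0.53 on U74Bv2. Of the germ cell sums Dazl alone gave 4287.3 and 6372.8. Most of the Sertoli sums came from Clu, with 16758 and 14551.7, and Aard, with 13733.2 and 12075. The Sertoli marker furthest from 0, Rhox5, was lower in the null, at 1071.6 and 523.7. Other probe sets of Sertoli markers lay on both sides of 0, from -0.47 for Sox9 to 0.57 for Dhh. The Leydig marker furthest from 0, Hsd17b3, was higher in the null, at 138.4 and 320.3. Of 4 measured peritubular markers 2 were lower, and of 5 measured endothelial markers 3 were higher. The Leydig markers Hsd3b6 and Insl3 were below the floor. The part of these shifts in the ratios of the enzymes was not tested, and in such mixed RNA fewer cells of a type and less RNA per cell cannot be told apart.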

How the data were processed

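The measurements were 6 single-colour arrays, 1 per genotype on each of 3 chips, grouped by the sample titles. The values are linear intensities per probe set as the authors deposited them. What software, background correction and scaling made them is not given in the sources used here. Means after trimming 2% at each end were nearly equal on the arrays of a chip (496.4 and 496 on U74Av2). The number of arrays limits the precision. Each chip was processed alone, without its 66 control probe sets. Null signals were divided by a factor, the median of null over wild type among probe sets above the middle rank, which on the log2 scale was 0.01, 0.00 and 0.02. Signals were then held at or above the floor (98.3, 165.3 and 124) before the log2 ratio was formed. No test was possible.

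Names came from a table pairing probe sets with GEO's platform annotation, in which 10833, 10581 and 7717 probe sets had 1 symbol, 396, 178 and 150 several and 1193, 1652 and 4001 none. Entrez identifiers of 10817, 10550 and 7677 matched RefSeq genes of GRCm38.p6, with every symbol kept. Coordinates are given for RefSeq promoters alone, since the files state no build. Named with both signals were members at the floor on 1 array or 2-fold different and at least the 3 brightest of each role group. Of each related list the 2 brightest were named. The members and lists were chosen with earlier results of these data known. Alternatives changed the scaling, floor, threshold, probe sets and chips. All steps ran in Python 3.11.15 with pandas 2.3.3, statsmodels 0.14.6, numpy 2.4.6, matplotlib 3.10.9 and scipy 1.17.1. Only the scaling, floor, ratio and spread were tested on simulated data, with changes in bright probe sets larger than those of the members.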

Additional observations from a re-analysis of the deposited data

How the results depend on the processing

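The median ratio of the members lay between -0.16 and -0.12 under every scaling, floor, probe set and chip setting tried, and the share of members below 0 between 62.2% and 73.0%, where all genes ranged from 50% to 52.5%. Members over 2 spreads from 0 numbered 3 or 4 on the higher side and 3 to 6 on the lower side. The share of all genes past 2 spreads was not computed for the changed scalings, floors and probe sets. These counts of members and that of lower members were added as results after the data were seen. So was the restriction to genes above the floor on both arrays. The counts past 2-fold, 0 in each direction, depended on the floor and the threshold. With the floor at the 20th percentile 1 member was 2-fold higher, Gstt4 at 1.55, and 3 related genes were 2-fold different. With no floor 1 member was higher, 1 was lower and 6 related genes were different. The share of all genes past 2-fold was not computed at these floors, so these counts show nothing particular to the members. At 1.5-fold 3 members were higher and 3 were lower, 6.67% each, beside 5.3% and 6.32% of all measured genes. At that threshold 4 related genes were different. Of 348 single ratios under another setting 338 moved by no more than the spread and 10 moved further. Many of these could not move, so the counts do not measure how well the ratios repeat. A lower floor leaves genes above the main floor unchanged, and the mean of measured probe sets changes only genes with several. Under that mean 7 of the 18 such members moved further than the spread. Gclm then stood at 0.33, a mean that includes a probe set at the floor in the null. No paired analysis was possible because each group has 1 array per chip. For the same reason no array could be left out, and what was measured is limited by signal over the floor.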
